A study of Homo sapiens and Canis lupus familiaris with 27 samples.

Results

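The transcriptome of LNCaP cells after 24 h with PDA-66 was compared with that after 12 h, which sets the late against the early response to the compound. Of the 27 samples of the series, 6 make up this comparison, 3 libraries per time, and 3 LNCaP control libraries give the level without the compound. LNCaP is an androgen-responsive human prostate adenocarcinoma cell line from a lymph node metastasis. The cells were given 15 µM PDA-66, an indolylmaleimide, for 12 h or 24 h, and the control cells were given 0.15% DMSO, the solvent, for 24 h. No control belongs to the 12 h time, so the length of exposure and the time in culture cannot be told apart. The 3 libraries of a group came from independent biological replicates. Each is a poly(A)-selected library of single reads, counted per gene, with 11923105 to 14741883 counts in all. Levels are given as CPM, the counts scaled to a common library total after TMM normalization, and since CPM does not account for gene length, no levels are compared between genes.

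PDA-66 is known as a compound that disturbs the assembly of microtubules, the polymers of α- and β-tubulin that form the mitotic spindle. Cells control their tubulin by a feedback on the mRNA. When free tubulin dimers accumulate, the mRNAs of α- and β-tubulins are degraded while they are translated, after the factor TTC5 has bound to the first residues of the growing tubulin chain. Cells whose spindle is disturbed are held in mitosis by the spindle checkpoint, and genes for the spindle, the kinetochore and cytokinesis are transcribed mainly in G2 and M phase.

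In the 12 h group, the library of replicate 2, L12-2, stood apart from the other libraries. Of 10619 genes compared, 3075 (29% of them) lay more than 2-fold from the mean of the other 12 h libraries. For the other 8 libraries, set against the remainder of their own group, this was the case for 0 to 472 genes. The deviation of L12-2 followed the GC content of the transcripts. Over 9722 genes the rank correlation with GC content was 0.788, with a median log2 deviation of -0.84 in the 25% of genes with the lowest GC content and of 1.04 in the 25% with the highest. Its TMM factor was 0.868, compared with 1.00 to 1.02 in the other libraries. The counts, the list medians and the genes described in full are therefore given with and without L12-2. Why L12-2 deviated was not tested. Fits corrected for GC content and length are given among the alternatives below. GC content also accompanied the comparison itself. The rank correlation of the log2 fold change with GC content was -0.43 over 11828 genes with all libraries and 0.36 over 11968 genes without L12-2.

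**Figure D1:**
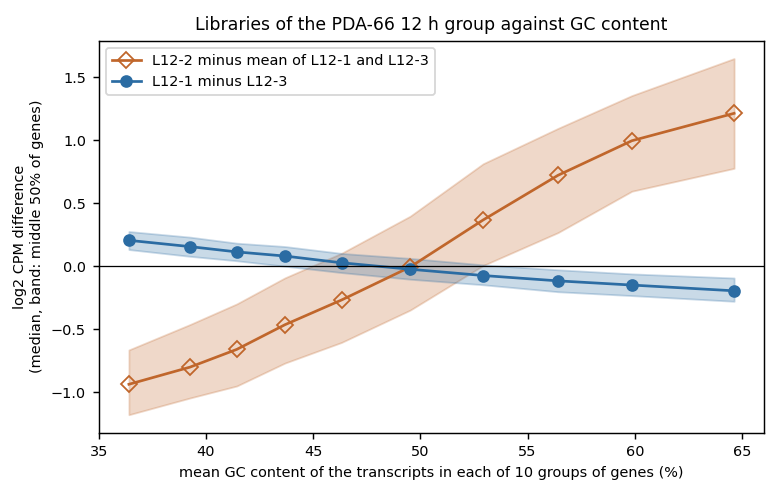
Libraries of the 12 h group against the GC content of the transcripts. The x axis gives the mean GC content (%) in each of 10 groups of genes and the y axis the median difference in log2 CPM, with a band for the middle 50% of genes. Open diamonds stand for L12-2 minus the mean of L12-1 and L12-3, which runs from below to above 0 with rising GC content, and filled circles for L12-1 minus L12-3, which lie closer to 0 and slope the other way.

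The libraries showed the markers of luminal prostate cells. All 13 luminal markers listed, among them KLK3 and TMPRSS2, were expressed, with a summed level of 4621 to 5314 CPM in the DMSO group, 3622 to 5079 CPM after 12 h and 4109 to 4181 CPM after 24 h. Basal or mesenchymal markers summed to 14.75 to 28.01 CPM in all 9 libraries, and TP63 was at 0. Neuroendocrine markers summed to 58.4 to 81.84 CPM, with INSM1 and SNAP25 at 0. Stromal, immune and blood markers summed to 19.98 to 30.41 CPM in the 8 other libraries and to 128.8 CPM in L12-2, with HBA2 at 0.

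With all 9 libraries in the fit, no gene passed between 24 h and 12 h. The edgeR quasi-likelihood F test with Benjamini-Hochberg adjustment called 0 of 13156 genes at an adjusted p under 0.001, the threshold of the study, and 0 under 0.05, where 837 genes (6.36%) had an unadjusted p under 0.05. The edgeR likelihood ratio test called 4, the DESeq2 Wald test 1 and edgeR's exact test on both PDA-66 groups 4 genes at 0.001. Limma voom with sample quality weights gave L12-2 a weight of 0.0443, compared with 0.320 to 4.70 for the other libraries, and called 189 genes at 0.001 (1.44%) and 2402 at 0.05 (18.3%). Without L12-2, the same quasi-likelihood test called 0 of 13335 genes at 0.001 and 1 gene, TUBA1A, at 0.05 (0.0075%), where 1476 genes (11.1%) had an unadjusted p under 0.05. The likelihood ratio test then called 23, the Wald test 21, voom 30 (0.225%) and the exact test 615 genes at 0.001.

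The spread depended on the libraries in the fit. The common biological coefficient of variation was 0.240 with all 9 libraries, 0.121 without L12-2, and 0.0577 when only the 5 remaining PDA-66 libraries were fitted. That last fit, of 3 libraries after 24 h against 2 after 12 h, called 196 of 12950 genes (1.51%) at 0.001, of which 103 (0.795%) were higher and 93 (0.718%) lower after 24 h, and 1949 (15.1%) at 0.05, of which 950 were higher and 999 lower. With L12-2 it called 0 of 12815 genes at either threshold. In the text below, "rose" and "fell" stand for an adjusted p under 0.05 in this fit of the 5 libraries, and log2 fold changes ± SE of 24 h against 12 h are from it unless said otherwise. This fit was chosen for these words after its counts had been seen. Values given with L12-2 are from the fit of all 9 libraries, in which no adjusted p was below 0.535. The background for counts of such genes was 7.34% higher and 7.71% lower. The median log2 fold change over all genes was -0.00 without L12-2 and -0.03 with all 9 libraries.

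The gene that passed the 3-group test, TUBA1A, is an α-tubulin gene. The feedback on tubulin mRNA acts through the start of the protein, so the first 30 bases of the coding sequence are shown for members of the family, 5′ to 3′ and read from GRCh37, with the first 12 bases, the start codon and the next codons, in capitals.
TUBA1A: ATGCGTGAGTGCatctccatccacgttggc
TUBA4A: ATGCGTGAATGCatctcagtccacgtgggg
TUBB: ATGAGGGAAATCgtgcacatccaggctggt
TUBB4A: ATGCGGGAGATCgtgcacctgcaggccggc
TUBG1: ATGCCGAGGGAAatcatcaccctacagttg
TUBD1: ATGTCAATTGTAacagtgcaacttggtcag
TUBE1: ATGACCCAGTCGgtggtcgtacaggtcggc
In the α- and β-tubulins, a start codon is followed by a codon for arginine, one for glutamate and one for cysteine (α) or isoleucine (β), spelled with different bases. Over 19849 protein-coding genes with 1 transcript each, this pattern was found in 19 (0.0957%), all of them named as tubulins. The search did not include the arginine codon AGA or the isoleucine codon ATA, so the count holds for the other spellings only. The γ-, δ- and ε-tubulins, which belong to the centrosome and centriole rather than to the polymer, do not have it. On GRCh37, TUBA1A lies at chr12:49578469-49582863 on the minus strand and TUBB4A at chr19:6494330-6502859 on the minus strand. TUBA4A lies at chr2:220114432-220142624 on the minus strand and TUBB at chr6:30685212-30693315 on the plus strand. In the α-tubulin genes shown, exon 1 holds only the first 3 of these bases and exon 2 the rest, whereas in the β-tubulin genes all 30 are in exon 1.

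TUBA1A, an α-tubulin, was at 13.8, 19.7 and 17.8 CPM in the DMSO group, at 4.12, 5.93 (L12-2) and 3.01 CPM after 12 h and at 16.5, 11.8 and 14.9 CPM after 24 h. All 12 h libraries lay below all others, and the 24 h libraries overlapped with the controls. The log2 fold change was 2.00 ± 0.18 (4.01-fold, adjusted p = 9.57e-07, edgeR quasi-likelihood test). In the 3-group fit without L12-2 it was 2.01 ± 0.23 with an adjusted p of 0.0494, and with L12-2 it was 1.73 ± 0.27. TUBB4A, a β-tubulin, showed the same order, with 4.73, 4.44 and 5.09 CPM in the DMSO group, 1.06, 1.40 (L12-2) and 0.861 CPM after 12 h and 4.20, 3.28 and 3.14 CPM after 24 h. Here the 24 h libraries stayed below the controls, and TUBB4A rose by 1.87 ± 0.27 on the log2 scale (adjusted p = 0.000211; 1.68 ± 0.25 with L12-2). In bulk RNA, a smaller share of cells with a transcript and less of it per cell cannot be told apart.

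For TUBB and TUBA4A, the level after 24 h lay above that of the controls. TUBB, a widely expressed β-tubulin, had 966, 718 and 610 CPM in the DMSO group, 905, 665 (L12-2) and 1048 CPM after 12 h, and 1676, 1570 and 1645 CPM after 24 h. No 24 h library overlapped with any other, and TUBB rose by 0.74 ± 0.07 (adjusted p = 2.03e-06; 0.90 ± 0.21 with L12-2). TUBA4A was at 105, 48.5 and 53.3 CPM in the DMSO group, 85.0, 172 (L12-2) and 88.7 CPM after 12 h and 212, 189 and 203 CPM after 24 h. L12-2 was the nearest 12 h library to the 24 h level, and TUBA4A rose by 1.21 ± 0.08 (adjusted p = 1.32e-08; 0.80 ± 0.34 with L12-2). TUBB2A, TUBB3, TUBA1C, TUBB4B, TUBA3D and TUBA1B rose too, by 0.83 ± 0.17, 0.79 ± 0.13, 0.71 ± 0.08, 0.56 ± 0.07, 0.56 ± 0.18 and 0.31 ± 0.07. For TUBA1C, TUBA1B, TUBA3D and TUBB4B, L12-2 lay above the 24 h range, so their values with L12-2 were only 0.26 ± 0.27, 0.17 ± 0.21, 0.21 ± 0.34 and 0.15 ± 0.28. TUBB1 (0.24 ± 0.37) and TUBB6 (0.32 ± 0.32) did not pass.

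Of the 12 α- and β-tubulins tested, 10 rose and 0 fell, beside the background of 7.34% higher. All 12 had a log2 fold change above 0 in the 3-group fit without L12-2, where the values ran from 0.24 to 2.01 with a median of 0.72, and the median was 0.50 with all 9 libraries. The 3 libraries after 24 h lay above all 3 after 12 h for 7 of these genes (9.77% of all genes did), and above the 2 remaining ones for 11 (22.7% of all genes). The other 4 tubulins had a median of -0.25 in that fit without L12-2, with 0 higher and 2 lower. TUBD1 (δ-tubulin) fell by 0.39 ± 0.10 on the log2 scale and TUBE1 (ε-tubulin) by 0.41 ± 0.14, whereas TUBG1 and TUBG2 (γ-tubulins) had values of -0.11 ± 0.08 and 0.06 ± 0.14 that did not pass. TTC5 itself had 31.0, 31.7 and 28.2 CPM after 24 h and 33.7, 51.8 (L12-2) and 29.4 CPM after 12 h (-0.06 ± 0.09, adjusted p = 0.705). Of 29 genes for microtubule-associated proteins and tubulin folding, 1 rose and 4 fell, with a median of -0.03.

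Some of these counts cannot be assigned to a single gene with certainty. Of the windows of 75 bases in the transcript of TUBA1A, 31.2% also occur in other tubulin transcripts, as do 42.2% for TUBA1B, 18.1% for TUBA1C and 56% for TUBB2A, but 0 for TUBB and TUBA4A and 2.18% for TUBB4A. TUBA1A and TUBA1C overlap head to head on opposite strands, TUBB overlaps with MDC1, TUBA4A with STK16 and TUBB2A with BPHL, and whether the counting used the strand is not given in the sources used here.

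**Figure D2:**
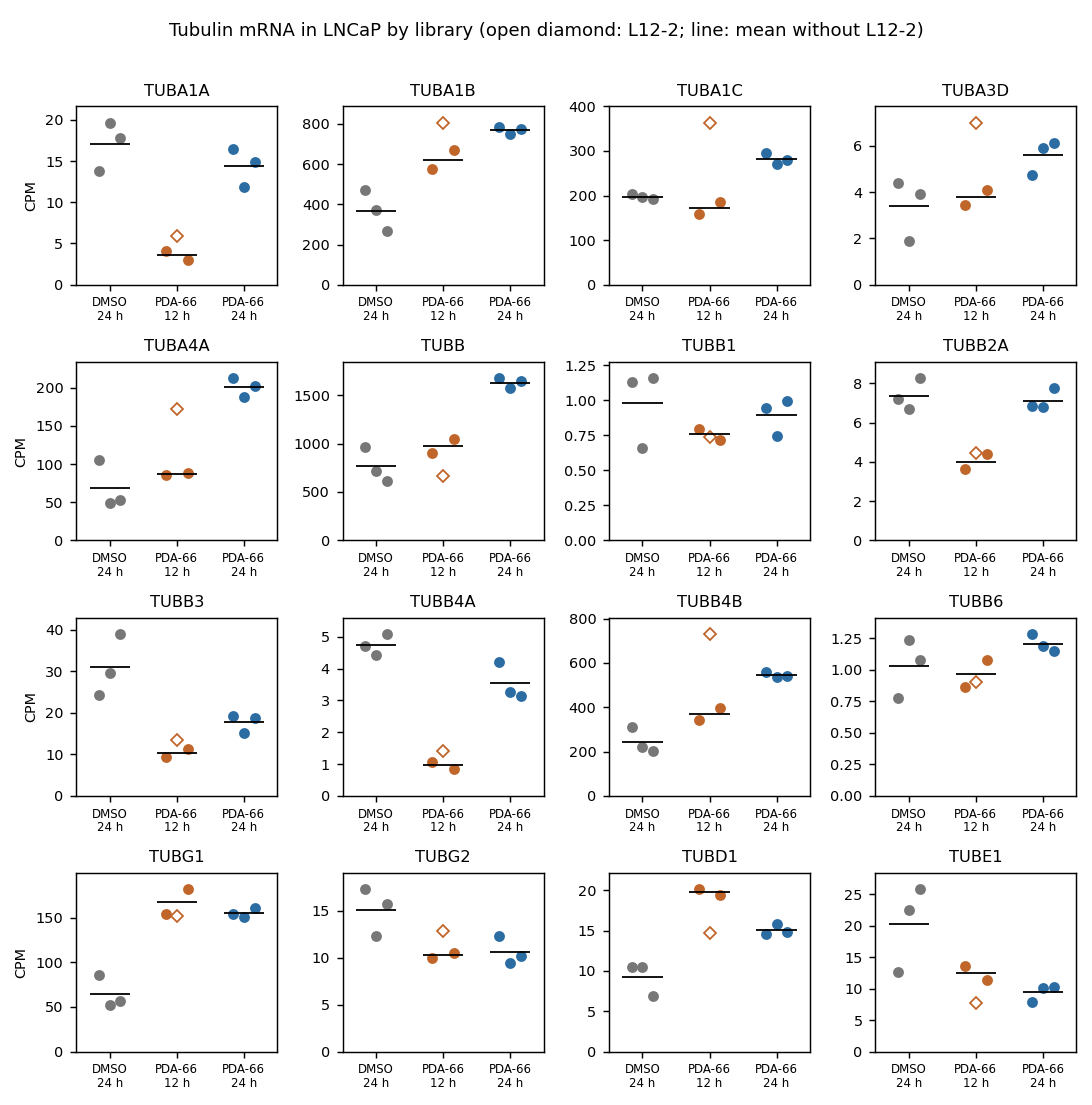
CPM of 16 tubulin genes in each of the 9 LNCaP libraries, by group, each panel with its own axis from 0. Open diamonds mark L12-2 and black lines the mean of a group without it. TUBA1A and TUBB4A are lowest after 12 h, TUBB and TUBA4A lie highest after 24 h, and the γ-, δ- and ε-tubulins in the last row do not follow either course.

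Compared with the controls, the α- and β-tubulins separated into those that were lower after 12 h and those that were not. The whole tubulin list, with the other tubulins and TTC5, had 17 tested genes. Of these, 5 were lower and 4 higher than DMSO after 12 h at an adjusted p under 0.05. Over all genes in this 3-group fit without L12-2, 15% were lower and 14.1% higher after 12 h. After 24 h, 3 genes of the list were lower and 7 higher than DMSO, where 14.5% and 13.5% of all genes were. Without L12-2 and with the DMSO group in the fit, TUBA1A had a log2 fold change against DMSO of -2.25 after 12 h (adjusted p = 0.000437) and of -0.24 after 24 h (0.323). TUBB4A had -2.29 (0.000509) and -0.42 (0.116), TUBB3 -1.58 (0.000913) and -0.79 (0.00956), and TUBB2A -0.87 (0.00651) and -0.05 (0.838). TUBB had 0.36 (0.114) after 12 h and 1.1 (0.00128) after 24 h, and TUBA4A 0.33 (0.356) and 1.55 (0.00213). These comparisons share the DMSO libraries with each other and the PDA-66 libraries with the comparison of the times, so they are given side by side as levels.

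The lists of genes by function separated into a few that were higher after 24 h, several that were lower, and many with a median near 0. The lists were written from general knowledge, but with earlier results of these data known, and are described by counts and medians only. Counts, numbers tested and medians without L12-2 are from the fit of the 5 libraries, and medians with all 9 libraries from the 3-group fit.

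**Figure D3:**
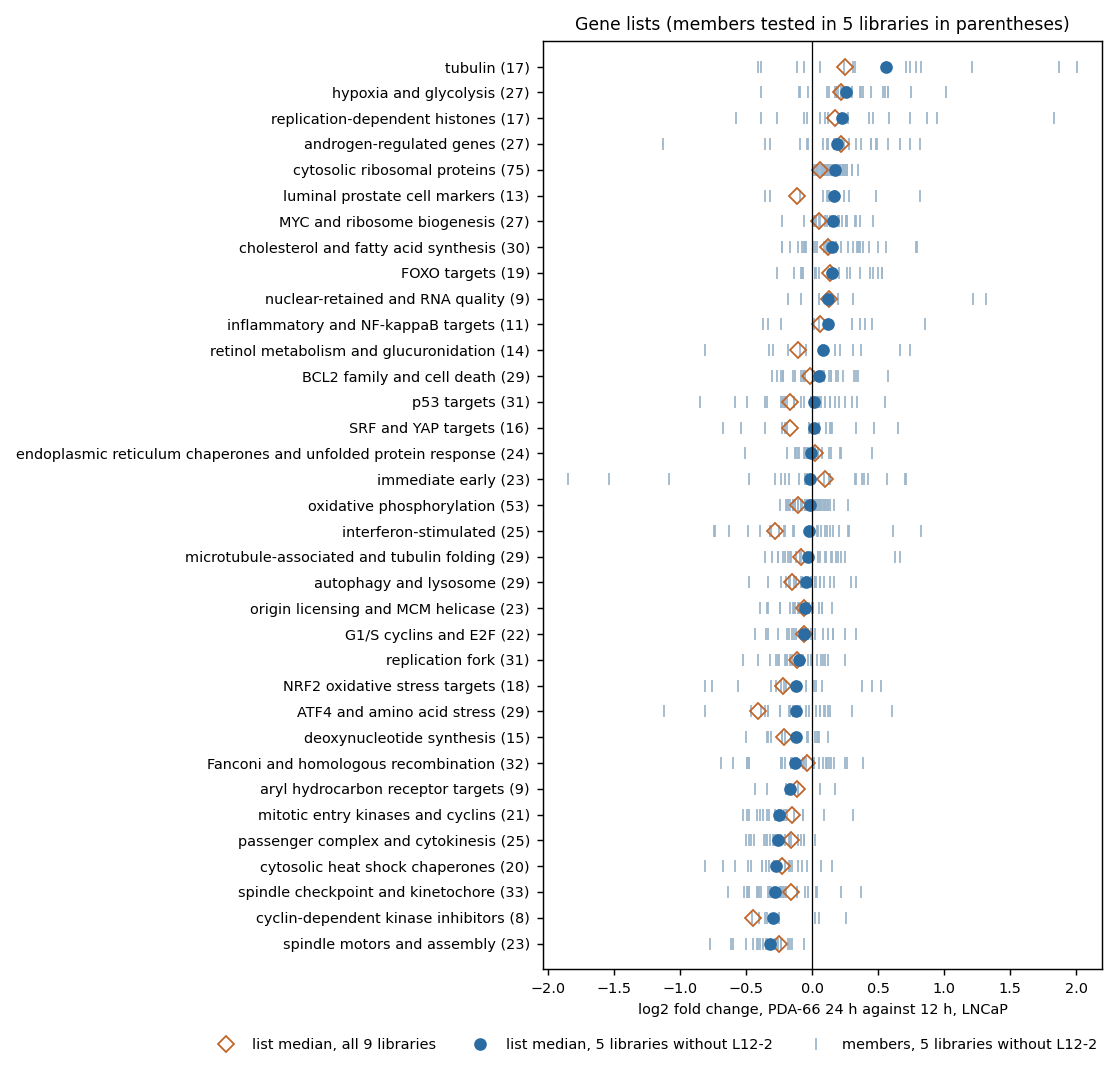
Log2 fold change of PDA-66 24 h against 12 h in LNCaP for gene lists with at least 8 tested members, with the number tested in parentheses. Bars are members in the 5-library fit without L12-2, filled circles the list median in that fit and open diamonds the list median with all 9 libraries. Tubulin has the highest median (0.56 and 0.25) and spindle motors and assembly the lowest without L12-2 (-0.32, and -0.25 with all 9).

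Genes of mitosis were lower after 24 h. Of 23 genes for spindle motors and spindle assembly, 18 fell and 0 rose (background 7.71% lower), and all 23 had a log2 fold change below 0 without L12-2, with a median of -0.32. Of 33 genes for the spindle checkpoint and kinetochore, 18 fell and 1 rose (median -0.28), of 25 for the chromosomal passenger complex and cytokinesis, 15 fell and 0 rose (-0.26), and of 21 for mitotic entry, 11 fell and 1 rose (-0.25). With all 9 libraries the medians were -0.25, -0.16, -0.16 and -0.16. Together these lists hold 100 tested genes, of which 60 fell.

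Most of these genes were above the controls at both times. KIF18A, a kinesin that limits the movements of chromosomes at the spindle, had 15.7, 11.3 and 4.94 CPM in the DMSO group, 42.1, 25 (L12-2) and 36.1 CPM after 12 h and 20.4, 24.7 and 23.6 CPM after 24 h. Its 24 h libraries lay below every 12 h and above every control library, and KIF18A fell by 0.78 ± 0.10 on the log2 scale (adjusted p = 7.33e-05; -0.59 ± 0.35 with L12-2). PLK1, a kinase of mitotic entry and spindle assembly, had 95.4, 65.5 and 42.5 CPM in the DMSO group, 195, 407 (L12-2) and 216 CPM after 12 h and 144, 141 and 145 CPM after 24 h. The 3 groups did not overlap, and PLK1 fell by 0.52 ± 0.07 (adjusted p = 9.97e-05; -0.93 ± 0.33 with L12-2). CENPE, a kinetochore motor, had 81.4, 72.7 and 30.3 CPM in the DMSO group, 205, 79.2 (L12-2) and 176 CPM after 12 h and 107, 142 and 119 CPM after 24 h. Here L12-2 lay among the controls, and CENPE fell by 0.64 ± 0.09 (adjusted p = 0.000222; -0.33 ± 0.40 with L12-2).

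Other members followed with smaller steps. KIF14, a kinesin of cytokinesis, fell by 0.60 ± 0.09, CCNF, a cyclin that marks proteins for degradation in G2, by 0.50 ± 0.08, ESPL1, the separase that opens cohesin, by 0.48 ± 0.08, and AURKA, a spindle pole kinase, by 0.40 ± 0.07. CDK1, the kinase of mitotic entry, fell by 0.33 ± 0.09, BUB1B of the spindle checkpoint by 0.23 ± 0.07 and CCNB1, the cyclin B1 partner of CDK1, by 0.22 ± 0.07. CDC20, which activates the anaphase-promoting complex, had 222, 226 (L12-2) and 245 CPM after 12 h and 219, 220 and 209 CPM after 24 h and did not pass (-0.12 ± 0.07, adjusted p = 0.277). Of the 4 lists, 23, 26, 23 and 20 members were higher than the controls after 12 h and 23, 25, 23 and 20 after 24 h at an adjusted p under 0.05 in the 3-group fit without L12-2, where 14.1% and 13.5% of all genes were higher.

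Promoters of genes that peak in G2 and M phase often hold a CHR element next to CCAAT boxes, which bind NF-Y. The promoters of CCNF, KIF14 and KIF18A are shown as examples of this arrangement. They were chosen among mitotic genes that fell and hold both motifs, so finding both in them is no separate result. The shares over all members follow the sequences. Each sequence runs from 250 bases before to 50 bases after the start of the gene, 5′ to 3′ on its strand. The bases are from RefSeq on GRCh38.p14, with each CHR element (TTTGAA or its complement TTCAAA) and each CCAAT or its complement ATTGG in capitals.
CCNF, chr16:2429197-2429496, plus strand: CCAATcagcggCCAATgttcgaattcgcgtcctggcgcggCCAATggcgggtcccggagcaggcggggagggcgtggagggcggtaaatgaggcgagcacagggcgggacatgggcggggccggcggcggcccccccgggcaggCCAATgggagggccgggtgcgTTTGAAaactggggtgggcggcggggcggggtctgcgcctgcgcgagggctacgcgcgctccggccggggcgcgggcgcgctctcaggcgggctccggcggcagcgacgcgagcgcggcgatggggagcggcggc
KIF14, chr1:200620702-200621001, minus strand: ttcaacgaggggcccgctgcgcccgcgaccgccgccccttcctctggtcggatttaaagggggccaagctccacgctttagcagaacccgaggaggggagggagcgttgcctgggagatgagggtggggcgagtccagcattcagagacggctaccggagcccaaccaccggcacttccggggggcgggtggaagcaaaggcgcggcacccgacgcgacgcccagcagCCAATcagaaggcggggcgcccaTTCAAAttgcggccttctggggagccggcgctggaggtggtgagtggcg
KIF18A, chr11:28108107-28108406, minus strand: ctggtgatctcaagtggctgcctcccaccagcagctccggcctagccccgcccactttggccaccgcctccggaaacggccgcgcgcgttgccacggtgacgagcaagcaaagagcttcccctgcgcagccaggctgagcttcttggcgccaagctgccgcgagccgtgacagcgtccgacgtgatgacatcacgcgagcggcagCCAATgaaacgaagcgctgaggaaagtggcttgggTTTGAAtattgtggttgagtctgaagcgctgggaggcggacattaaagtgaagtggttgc
A promoter was at hand for 82 of the 100 mitotic genes. The CHR letters on either strand occurred in 53 of them (64.6%), compared with 15.4% of 27305 promoters in all and 9.35% of those of 9617 tested genes. CCAAT occurred in 53 (64.6%, compared with 35.7% and 37.2%) and both in 39 (47.6%, compared with 6.08% and 4.03%). The share with CHR was 67.3% of the 52 members that fell and 60% of the 30 that did not. For CCAAT the shares were 63.5% and 66.7%, and for both motifs together 46.2% and 50%. The motifs thus did not set the members that fell apart from the others in a common direction.

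Heat shock chaperones were lower after 24 h as well. Of 20 genes tested, 11 fell and 0 rose, with a median of -0.28 (-0.23 with all 9 libraries). DNAJB1, the HSP40 partner of HSP70, was at 71.6, 61.1 and 69.5 CPM in the DMSO group, 113, 188 (L12-2) and 113 CPM after 12 h and 76.7, 74.2 and 75.6 CPM after 24 h. The 24 h libraries lay just above the controls and below every 12 h library, and DNAJB1 fell by 0.58 ± 0.07 (adjusted p = 4.56e-05; -0.87 ± 0.21 with L12-2). HSP90AA1, the inducible HSP90, had 3056, 2267 and 2083 CPM in the DMSO group, 5156, 6688 (L12-2) and 4781 CPM after 12 h and 3404, 3702 and 3539 CPM after 24 h, and fell by 0.49 ± 0.06 (adjusted p = 4.78e-05; -0.64 ± 0.18 with L12-2). The 3 groups did not overlap for this gene. DNAJB4, HSPA1B, HSPH1 and HSPA8 fell by 0.81 ± 0.11, 0.35 ± 0.07, 0.33 ± 0.07 and 0.26 ± 0.06. HSPA1B shares 70.2% of its windows with HSPA1A, so its counts may belong to either gene, and DNAJB1 and HSP90AA1 overlap with TECR and WDR20 on the other strand.

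Genes of hypoxia and glycolysis were higher after 24 h. Of 27 tested, 17 rose and 1 fell, with a median of 0.26 (0.22 with all 9 libraries). ALDOC, an aldolase of glycolysis, had 121, 89.3 and 98.1 CPM in the DMSO group, 64.1, 101 (L12-2) and 75.3 CPM after 12 h and 150, 129 and 142 CPM after 24 h. The 24 h libraries lay above all others, and ALDOC rose by 1.01 ± 0.09 (2.01-fold, adjusted p = 7.98e-07; 0.81 ± 0.20 with L12-2). BNIP3, a mitophagy receptor, had 231, 203 and 178 CPM in the DMSO group, 173, 127 (L12-2) and 152 CPM after 12 h and 235, 243 and 248 CPM after 24 h, and rose by 0.57 ± 0.07 (adjusted p = 6.23e-05; 0.69 ± 0.16 with L12-2). The glucose transporter SLC2A1 had 72.2, 94.4 (L12-2) and 80.4 CPM after 12 h and 121, 107 and 113 CPM after 24 h, a range that overlaps with the controls (106, 89.1 and 113 CPM), and rose by 0.57 ± 0.08. PFKFB4, which controls a regulator of glycolysis, NDRG1 and the enolase ENO2 rose by 0.75 ± 0.10, 0.57 ± 0.08 and 0.55 ± 0.08, with values of 0.37 ± 0.25, 0.36 ± 0.18 and 0.27 ± 0.21 with L12-2. The abundant glycolytic genes GAPDH (0.12 ± 0.07) and PGK1 (0.18 ± 0.06) did not pass.

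Of 27 genes regulated by androgens, 12 rose from 12 h to 24 h and 2 fell, with a median of 0.19 without L12-2 and of 0.22 with all 9 libraries. These counts take no account of whether androgens induce or repress a gene, so they give no direction for the androgen response. TMPRSS2, a protease gene under androgen control, had 301, 573 and 486 CPM in the DMSO group, 134, 212 (L12-2) and 129 CPM after 12 h and 240, 221 and 235 CPM after 24 h. All PDA-66 libraries lay below the controls, and TMPRSS2 rose by 0.82 ± 0.07 from 12 h to 24 h (adjusted p = 7.98e-07; 0.55 ± 0.26 with L12-2). UGT2B17 and UGT2B15, which glucuronidate androgens, were also below the controls at both times and rose by 0.74 ± 0.09 and 0.66 ± 0.09 (0.87 ± 0.22 and 0.86 ± 0.26 with L12-2), and 15.3% and 17.9% of their windows occur in the other of the pair. FKBP5, a chaperone of steroid receptors, went the other way against the controls, with 146, 133 and 122 CPM in the DMSO group, 310, 208 (L12-2) and 289 CPM after 12 h and 394, 426 and 405 CPM after 24 h, and rose by 0.44 ± 0.07 (adjusted p = 0.000255; 0.60 ± 0.17 with L12-2). PMEPA1 rose by 0.49 ± 0.07 and CAMKK2 by 0.45 ± 0.07.

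KLK3, which encodes PSA, depended on the library. It was at 68.2, 26.1 and 52.0 CPM in the DMSO group, 27.4, 53.6 (L12-2) and 23.7 CPM after 12 h and 38.4, 31.3 and 37.6 CPM after 24 h, and rose by 0.48 ± 0.10 without L12-2 (adjusted p = 0.00462) but had a value of 0.04 ± 0.38 with it. For KLK2 the value changed sign, from 0.28 ± 0.07, which passed, to -0.33 ± 0.35 with L12-2. SLC45A3, a further androgen-regulated gene, fell by 0.36 ± 0.07 (-0.61 ± 0.21 with L12-2). The luminal markers as a list, several of which are regulated by androgens, had 4 genes that rose and 1 that fell among 13.

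**Figure D4:**
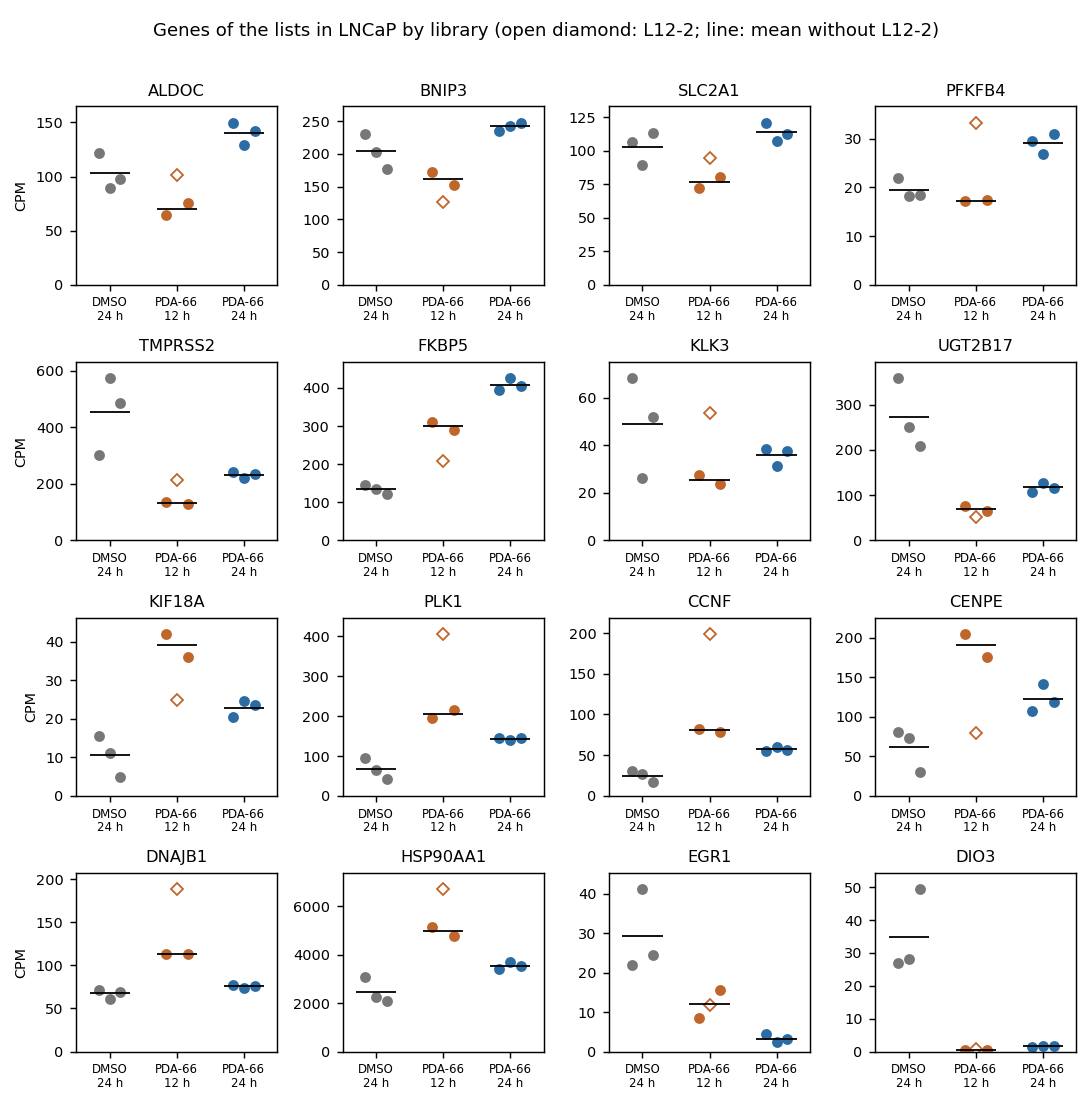
CPM of 16 genes in each of the 9 LNCaP libraries, by group, each panel with its own axis from 0, with open diamonds for L12-2 and black lines for the mean of a group without it. The rows hold hypoxia and glycolysis genes, androgen-regulated genes, mitotic genes, and heat shock genes with EGR1 and DIO3. In PFKFB4, KLK3 and CENPE, L12-2 lies on the other side of the 24 h libraries from L12-1 and L12-3.

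Genes of cholesterol and fatty acid synthesis rose in 13 of 30 cases and fell in 0, with a median of 0.15 (0.12 with all 9 libraries). SCD, the stearoyl-CoA desaturase, had 1087, 652 and 1152 CPM in the DMSO group, 709, 391 (L12-2) and 689 CPM after 12 h and 1264, 1171 and 1201 CPM after 24 h. The 24 h libraries lay above all others, and SCD rose by 0.79 ± 0.06 (adjusted p = 2.94e-07; 1.02 ± 0.26 with L12-2). FASN, the fatty acid synthase, had 901, 2390 (L12-2) and 1037 CPM after 12 h and 1792, 1580 and 1648 CPM after 24 h, and rose by 0.79 ± 0.07 without L12-2 but had a value of 0.21 ± 0.38 with it. SREBF1, a transcription factor of lipid synthesis that overlaps with RAI1 on the other strand, rose by 0.56 ± 0.07, and its value with L12-2 was -0.06 ± 0.38. HMGCS1, an early enzyme of cholesterol synthesis, did not pass (-0.17 ± 0.08, adjusted p = 0.147).

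Transcripts of the protein synthesis machinery shifted by small amounts in a common direction. All 75 cytosolic ribosomal protein genes tested had a log2 fold change above 0 without L12-2, compared with 49.3% of all genes, with a median of 0.17. Of these 21 rose and 0 fell. With all 9 libraries 47 were above 0 and the median was 0.06. Many of these genes have near-identical copies elsewhere in the genome. Of 27 targets of MYC and genes of ribosome biogenesis, 7 rose and 1 fell (median 0.16), and MYC itself rose by 0.32 ± 0.07 (0.29 ± 0.16 with L12-2). Of 17 replication-dependent histone genes, whose mRNAs mostly lack a poly(A) tail, 6 rose and 0 fell. Of these, HIST1H1E, a linker histone, had 6.14, 4.53 and 10.2 CPM in the DMSO group, 2.32, 7.99 (L12-2) and 3.08 CPM after 12 h and 8.40, 9.98 and 10.6 CPM after 24 h, and rose by 1.83 ± 0.18 (adjusted p = 4.12e-06; 1.12 ± 0.44 with L12-2).

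The lists of S phase genes had medians closer to 0. Of 31 genes of the replication fork, 6 fell and 0 rose, of 23 for origin licensing, 3 and 0, and of 15 for deoxynucleotide synthesis, 5 and 0, with medians of -0.10, -0.06 and -0.13. RRM2, a subunit of ribonucleotide reductase, had 538, 388 (L12-2) and 529 CPM after 12 h and 348, 403 and 384 CPM after 24 h, all above the controls (124, 156 and 58.2 CPM), and fell by 0.50 ± 0.07 (adjusted p = 0.000115; -0.36 ± 0.30 with L12-2). CCNE2, cyclin E2, fell by 0.26 ± 0.08. MCM2 of the replicative helicase (-0.13 ± 0.07) and TYMS, the thymidylate synthase (-0.21 ± 0.08), did not pass.

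The stress-related lists held genes of both directions. Of 29 ATF4 targets, 9 fell and 1 rose (median -0.13, and -0.41 with all 9 libraries). SLC7A11, the cystine transporter, had 212, 89.1 (L12-2) and 188 CPM after 12 h and 101, 132 and 111 CPM after 24 h and fell by 0.81 ± 0.09 (-0.51 ± 0.57 with L12-2), with controls spread from 132 to 875 CPM. CHAC1, which degrades glutathione, fell by 1.12 ± 0.20 and ASNS, the asparagine synthetase, by 0.47 ± 0.07. DDIT3 (0.30 ± 0.13) and ATF3 (0.09 ± 0.08), both stress-induced transcription factors, did not pass, and both were lower than the controls at both times. Of 31 p53 targets, 2 rose and 7 fell (median 0.02, and -0.17 with all 9 libraries). CDKN1A, the p21 inhibitor of cyclin-dependent kinases, had 278, 872 (L12-2) and 339 CPM after 12 h and 337, 305 and 315 CPM after 24 h and did not pass (0.05 ± 0.08, adjusted p = 0.735), and neither did MDM2 (0.04 ± 0.07). GDF15, a secreted stress factor, rose by 0.34 ± 0.10 and had a value of -0.12 ± 0.31 with L12-2. TXNIP, an inhibitor of thioredoxin, rose by 0.26 ± 0.09, with controls from 8.03 to 102 CPM.

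Of 23 immediate early genes, 5 rose and 3 fell. EGR1, a transcription factor induced by growth signals, had 22.1, 41.1 and 24.6 CPM in the DMSO group, 8.43, 11.8 (L12-2) and 15.6 CPM after 12 h and 4.33, 2.46 and 3.07 CPM after 24 h. The 3 groups did not overlap and L12-2 lay between the other 12 h libraries. EGR1 fell by 1.85 ± 0.23 (3.61-fold, adjusted p = 6.23e-05; -1.85 ± 0.34 with L12-2), and FOS of the AP-1 factor fell by 1.09 ± 0.27. Of 9 targets of the aryl hydrocarbon receptor, 0 rose and 0 fell at an adjusted p under 0.05. CYP1A1, a cytochrome P450 induced through that receptor, was at 0.917, 0.411 and 0.618 CPM in the DMSO group and at 6.77 to 10.3 CPM in the 6 PDA-66 libraries, with no difference between the times that passed (-0.18 ± 0.15, adjusted p = 0.452). DIO3, the deiodinase that inactivates thyroid hormone, was at 27.0, 28.1 and 49.3 CPM in the DMSO group, at 0.332, 0.823 (L12-2) and 0.359 CPM after 12 h and at 1.49, 1.64 and 1.61 CPM after 24 h. It rose by 2.16 ± 0.39 (adjusted p = 0.00124; 1.67 ± 0.42 with L12-2) and at 24 h its log2 fold change against DMSO was still -4.45 without L12-2.

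Ranked by p-value in the fit of all 9 libraries, among genes of at least 5 CPM, TUBA1A came first. The other genes in the higher direction included BHLHE40 and NR1D1, repressors of the circadian clock, and MAF, a transcription factor. BHLHE40 had 32.9, 23.6 and 37.5 CPM in the DMSO group, 15.5, 16.5 (L12-2) and 17.0 CPM after 12 h and 34.1, 31.5 and 32.3 CPM after 24 h. The 24 h libraries lay within the controls and all 12 h libraries below, and BHLHE40 rose by 1.00 ± 0.10 (adjusted p = 3.62e-06; 1.00 ± 0.19 with L12-2). NR1D1, which overlaps with THRA on the other strand, rose by 1.27 ± 0.19 (1.30 ± 0.26 with L12-2) and MAF by 0.79 ± 0.11 (0.89 ± 0.18). PRKCA, protein kinase Cα, rose by 0.62 ± 0.08, SLC1A1, a glutamate transporter, by 0.81 ± 0.15, the noncoding PCAT1 by 0.85 ± 0.15, the pseudogene FAM86C2P by 0.89 ± 0.14 and GLYATL2, a glycine acyltransferase, by 0.92 ± 0.15. TUBB completes these 10.

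In the lower direction, EGR1 was followed by DAPK1, a kinase of cell death, with 13, 15.2 and 12.9 CPM in the DMSO group, 21.8, 23.2 (L12-2) and 23.6 CPM after 12 h and 13.8, 12.1 and 13.3 CPM after 24 h. The 24 h libraries overlapped with the controls, and DAPK1 fell by 0.79 ± 0.11 (adjusted p = 9.97e-05; -0.80 ± 0.15 with L12-2). GNB4, a G protein β subunit, fell by 0.58 ± 0.07 and SYNM, an intermediate filament protein, by 0.64 ± 0.12. C5orf54 fell by 1.07 ± 0.11, LOC202781 by 0.58 ± 0.10, DHRS2, a dehydrogenase, by 0.93 ± 0.16, the host gene SNHG10, which overlaps with GLRX5, by 0.71 ± 0.14 and CSRNP2 by 0.63 ± 0.09. With DNAJB1 these make up the 10 lower genes. For all 20 genes of both directions, the groups did not overlap with L12-2 included, as for 9.77% of all genes in the higher and 8.7% in the lower direction. These genes were ranked by p-value on the same libraries, so their separation follows largely from that choice and is no separate result.

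Further genes were taken from those with at least 5 CPM and large changes in the 5-library fit. The choice also required no overlap between the 24 h libraries and the 2 remaining 12 h libraries, so their separation is no separate result. Such separation held for 22.7% of all genes in the higher and 21.1% in the lower direction. TMEM100, a membrane protein gene, had 17.4, 10.7 and 23.7 CPM in the DMSO group, 22.7, 29.8 (L12-2) and 20.9 CPM after 12 h and 52.1, 52.8 and 49.1 CPM after 24 h. It was above the controls only in the 24 h libraries and L12-2, and rose by 1.23 ± 0.09 (adjusted p = 1.17e-07; 1.07 ± 0.27 with L12-2). ANGPT2, an angiopoietin gene that overlaps with MCPH1 on the other strand, had 56.3, 138 and 174 CPM in the DMSO group, 6.11, 2.63 (L12-2) and 6.89 CPM after 12 h and 16.5, 16.5 and 15.5 CPM after 24 h. It rose by 1.31 ± 0.13 from a level below all controls (1.62 ± 0.43 with L12-2). SLPI, a secreted protease inhibitor, had 16.6, 8.89 and 10.0 CPM in the DMSO group, 17.0, 128 (L12-2) and 23 CPM after 12 h and 7.52, 8.49 and 7.66 CPM after 24 h. It fell by 1.34 ± 0.14, and its value of -2.83 ± 0.69 with L12-2 rests on that library.

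The difference between the times was also compared with that in PC-3, an androgen-independent prostate carcinoma line from a bone metastasis, by the edgeR quasi-likelihood test of the interaction. With all LNCaP libraries, 2 of 15018 genes (0.0133%) passed at an adjusted p under 0.001 and 12 (0.0799%) at 0.05. Without L12-2, 8 of 14979 (0.0534%) and 111 (0.741%) passed, the latter with 0.314% higher and 0.427% lower in LNCaP. PODXL, an adhesion glycoprotein, had 61.3, 58.4 (L12-2) and 63.6 CPM after 12 h and 74.0, 71.3 and 72.0 CPM after 24 h in LNCaP, but 592, 617 and 627 CPM after 12 h and 247, 254 and 291 CPM after 24 h in PC-3. The 24 h libraries lay below the 12 h libraries in PC-3 and above them in LNCaP, and the difference of the log2 fold changes was 1.43 ± 0.14 (adjusted p = 5.8e-05; 1.48 with L12-2, adjusted p = 0.00098). PLOD2, a lysyl hydroxylase of collagen, had 3.32, 1.23 (L12-2) and 2.3 CPM after 12 h and 7.38, 8.57 and 6.90 CPM after 24 h in LNCaP, and 241, 214 and 225 CPM after 12 h and 170, 161 and 138 CPM after 24 h in PC-3. The directions were opposite, with a difference of 1.97 ± 0.22 (adjusted p = 0.00022; 2.26 with L12-2, adjusted p = 0.0063).

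PODXL and PLOD2 belong to the 10 genes with the smallest p-values for this difference and at least 5 CPM in both lines. For the other 8, as for PODXL, the log2 fold change was further from 0 in PC-3 than in LNCaP. SPHK1, a sphingosine kinase that overlaps with PRPSAP1, had log2 fold changes of 0.30 in LNCaP and -1.20 in PC-3, SNAPC1 of -0.00 and -1.19, and the receptor kinase EPHB2 of 0.55 and -0.71. CCDC141 had 0.16 in LNCaP and 1.85 in PC-3, MCTP2 -0.12 and 1.13, SPRY1, an inhibitor of growth factor signals, -0.17 and 0.99, KIAA0040 -0.46 and 0.75, and the protease receptor F2RL1 -0.07 and 0.65. In SPHK1, L12-2 had 29.7 CPM, compared with 6.04 and 6.24 CPM in the other 12 h libraries, and the difference was 1.49 without L12-2 and 0.34 with it.

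**Figure D5:**
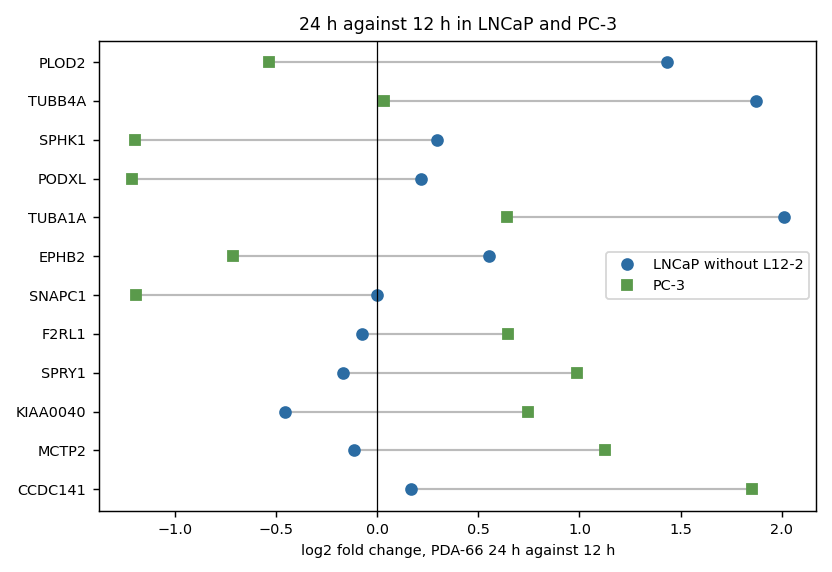
Log2 fold change of PDA-66 24 h against 12 h in LNCaP without L12-2 (circles) and in PC-3 (squares) for the 10 genes named by their interaction p-value and for TUBA1A and TUBB4A, with a grey line for the difference. PLOD2, TUBA1A and TUBB4A are furthest to the right in LNCaP, whereas PODXL, SPHK1, SNAPC1 and CCDC141 are far from 0 only in PC-3.

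Tubulin differed between the lines in part. In PC-3, 5 of the listed tubulin genes were higher and 1 lower after 24 h than after 12 h, where 5.59% of all genes were higher and 4.5% lower. TUBA1A had a log2 fold change of 0.64 there (39.7, 47.6 and 45.1 CPM after 12 h and 63.3, 68.0 and 75.8 CPM after 24 h), and the difference of 1.37 ± 0.25 to LNCaP had an adjusted p of 0.0107 without L12-2 and of 0.20 with it. TUBB4A had 22.7, 24.0 and 24.0 CPM after 12 h and 21.5, 23.5 and 27.5 CPM after 24 h in PC-3, and its difference to LNCaP was 1.84 ± 0.33 (adjusted p = 0.0107; 0.045 with L12-2). For TUBA4A the difference of 1.04 ± 0.31 did not pass (0.144). In the 4 mitotic lists the medians in PC-3 were -0.02, 0.04, 0.03 and 0.05, in the order given above. The medians of the difference, LNCaP minus PC-3, were -0.27, -0.29, -0.27 and -0.22 without L12-2. With it they were -0.22, -0.14, -0.11 and -0.11. Of their members, 0 passed the interaction test at 0.05 in either direction, but only 0.741% of all genes did without L12-2. A difference between the lines is thus neither shown nor excluded for them.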

How the data were processed

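RNA-seq of LNCaP cells was compared between 12 h and 24 h of PDA-66, with DMSO libraries in the fit. The authors mapped single reads to hg19 with STAR 2.3.1s and deposited whole counts per gene, without normalization, for 23708 genes. Strand use and the handling of reads that fit several genes are not given in the sources used here. The submitters' processing notes also name edgeR 3.14.0.

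Counts were analysed with edgeR 4.0.16, limma 3.58.1 and DESeq2 1.42.0 in R 4.3.3, and with Python 3.11.15. After filterByExpr and TMM normalization, the quasi-likelihood F test was applied to all LNCaP groups together, with Benjamini-Hochberg adjustment over all genes tested and 0.001 as the threshold. The scripts were tested on simulated data. Library totals set the counting error, which adds to the spread of genes of low CPM. GC content and length came from GENCODE transcripts on GRCh37 for 20574 symbols. Motif searches read both strands, and start searches 1 transcript per gene.

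The members and the 39 gene lists were chosen with earlier results of these data known. Named genes were the 10 per direction with the smallest p with all libraries and at least 5 CPM, up to 15 per direction by fold without L12-2, up to 4 passing members and the most abundant member of each list, a fixed set, and 5 per direction for PC-3. Other genes, among them list members ranked by the 5-library fit, were chosen after their values were seen. Alternatives were other scalings, filters, tests and thresholds, fits of both PDA-66 groups alone, a replicate block and leaving out each replicate, and the GC and length correction (spline with 4 degrees of freedom) was chosen after seeing the data. Replicate numbers were not used to pair the samples, apart from the replicate block. PC-3 libraries were compared by an interaction, where 1 control, excluded by the study, was not used, and trailing separators in the table were removed. CT1258 was not used here, and some list members are not reported here.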

Additional observations from a re-analysis of the deposited data

Results flagged for a closer look

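For these genes, the log2 fold change of 24 h against 12 h differed between LNCaP without L12-2 and PC-3, with an adjusted p under 0.05 in the interaction test of edgeR. The value given is that of LNCaP minus that of PC-3, and no explanation was tested. PODXL (1.43), PLOD2 (1.97), CCDC141 (-1.69), SPRY1 (-1.16), SNAPC1 (1.19), TUBB4A (1.84) and PMEPA1 (1.92) also had an adjusted p under 0.05 with L12-2. PMEPA1, a membrane protein that limits TGF-β signals, was at 6.23, 5.29 and 5.86 CPM after 12 h and at 2.73, 1.65 and 2.1 CPM after 24 h in PC-3.

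The other genes passed only without L12-2. They were KIAA0040 (-1.21), MCTP2 (-1.24), SPHK1 (1.49), F2RL1 (-0.72), EPHB2 (1.27), TUBA1A (1.37), ACTG1 (0.71), CCND1, which encodes cyclin D1 (0.56), PRKCA (0.87), HIST1H1E (2.73), HSPA1B (1.17), PFKFB4 (0.87), SLC2A1 (0.71) and SLPI (-1.40). HSPA1B was at 89.2, 94.1 and 99.3 CPM after 12 h and at 28.3, 35.0 and 35.7 CPM after 24 h in PC-3. ACTG1 was at 4231 to 4629 CPM after 12 h and 2981 to 3814 CPM after 24 h there. HIST1H1E was at most at 1.5 CPM in these PC-3 libraries.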

How the results depend on the processing

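For 24 h against 12 h with all 9 libraries, the count of genes at an adjusted p under 0.001 was 0 with DESeq2 size factors, library size only, other filters, the 6 PDA-66 libraries alone, GC and length correction with 3 groups or with these 6, and the higher threshold. It was 4 with the likelihood ratio test, 1 with the Wald test, 189 with voom and 4 with the exact test. Leaving out 1 replicate at a time gave 0 to 0. Without L12-2, it was 1 with no filter, 23 with the likelihood ratio test, 21 with the Wald test, 30 with voom, 615 with the exact test, 196 with only both PDA-66 groups and 750 when GC and length were corrected as well, 1 at an adjusted p under 0.05, and 0 to 1 without 1 replicate. That 1 came without DMSO replicate 1, where 138 genes had an adjusted p under 0.05. For LNCaP against PC-3, 2 genes passed, and 0 with library size only, 0 with no filter, 10 with the likelihood ratio test, 12 at 0.05 and 0 to 8 without 1 replicate, 8 of them without L12-2. The cause was not tested, other than that fewer libraries entered some fits.

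Over 38 named genes with all libraries, 798 of 870 values kept direction and side of the threshold, 53 passed newly and 0 reversed, and 19 not past 0.05 changed sign. Without L12-2, 639 of 832 did so, 179 passed newly, 10 no longer passed and 0 reversed. For the 10 genes against PC-3, this was 158 of 190, with 8, 22 and 0. With a replicate block, 0 genes passed with all libraries and 0 without L12-2. Of 9 pairs with the same number, 1 had a correlation of deviations over 0.1 (range -0.53 to 0.35). These deviations include that of L12-2, which followed GC content, so they cannot tell whether equal numbers belong together.

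The 5-library fit holds 2 libraries after 12 h, so its spread rests on few samples. In that fit, correction for GC and length left α- and β-tubulin and the mitotic lists on the same side, with 8 tubulin genes higher at 0.001.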

Other observations

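Further lists are given with their counts and medians from the fit of the 5 libraries without L12-2. Of 19 FOXO targets, 7 rose and 1 fell (median 0.15), among them the antiproliferative BTG1 (0.53 ± 0.06 on the log2 scale), the insulin receptor substrate IRS2 (0.53 ± 0.09) and KLF9 (0.36 ± 0.07). Of 53 genes of oxidative phosphorylation, 1 rose and 1 fell (median -0.01), and ATP5B of the ATP synthase had a value of -0.05 ± 0.06. Of 24 endoplasmic reticulum chaperones and genes of the unfolded protein response, 1 rose and 1 fell (-0.01), of 29 autophagy and lysosome genes, 1 and 2 (-0.05), of 29 genes of the BCL2 family and cell death, 3 and 1 (0.05), and of 25 interferon-stimulated genes, 0 and 2 (-0.02). Of 18 NRF2 targets, 3 rose and 5 fell (-0.12), of 32 genes of the Fanconi pathway and homologous recombination, 2 and 7 (-0.13), of 22 G1/S cyclins and E2F genes, 0 and 3 (-0.07), of 8 cyclin-dependent kinase inhibitors, 0 and 2 (-0.30), and of 16 SRF and YAP targets, 3 and 2 (0.01). Of 11 inflammatory and NF-κB targets, 3 rose and 0 fell (0.12), and of 14 genes of retinol metabolism and glucuronidation, 4 and 1 (0.08).

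Abundant members of these lists gave values of both signs. FTH1, the ferritin heavy chain, rose by 0.38 ± 0.07, ACTG1, a cytoplasmic actin, by 0.33 ± 0.07, and NFKBIA, the inhibitor of NF-κB, by 0.36 ± 0.08, with 0.24 ± 0.17, 0.07 ± 0.19 and 0.04 ± 0.23 with L12-2. CENPF, a kinetochore protein, fell by 0.48 ± 0.09 (-0.30 ± 0.29 with L12-2). The nuclear RNA MALAT1 rose by 0.31 ± 0.07 (0.42 ± 0.19), and its list of nuclear-retained and RNA quality genes summed to 9153 and 9594 CPM after 12 h without L12-2 and to 10110 to 10610 CPM after 24 h, whose part in the results was not tested. COL1A1, a stromal collagen, had a value of 0.06 ± 0.10 without L12-2 and of -1.47 ± 0.64 with it.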
